A study of Mus musculus with 12 samples.

Results

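The circadian clock genes described here are 10 genes of the transcription feedback loop that keeps daily time in mouse cells, out of 28793 genes measured by RNA sequencing of the large intestine. They are the activators Arntl and Npas2, the repressors Per1, Per2, Per3 and Cry1, the nuclear receptors Nr1d1 and Nr1d2, and the output factors Dbp and Tef. They were chosen because their levels in unsorted crypt epithelium split the libraries into opposite states, so their values there are a description and carry no test. In sorted cells, which the choice did not use, those with enough signal were tested.

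All 12 libraries came from C57BL/6 mice aged 3 months and differed in Tert, the gene for the catalytic subunit of telomerase, the enzyme that maintains chromosome ends. In the unsorted set were 2 libraries from mTert_HET crypt epithelium, the heterozygous controls, 2 from mTert_NULL_Generation4 mice (null G4) and 2 named mTert_reactivated_Generation4 (reactivated), generation 4 epithelium labelled as telomerase reactivated. The sorted set held 3 mTert_HET and 3 mTert_NULL_Generation3 (null G3) libraries of crypt base columnar cells sorted by GFP, which lie at the crypt bottom and act as its stem cells and which the sample labels also call stem/progenitor cells. The controls therefore carried 1 mutated Tert copy, and no library is labelled wild type. The labels name neither the promoter that drives GFP nor the way telomerase was reactivated, and they mark the reactivated libraries with the tag tam without expanding it. Libraries of a group are called biological replicates with no animal named, so a p-value here reflects library-to-library spread alone, and that spread may be technical. The labels give no hour of tissue collection, no light cycle and no sex.

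In the clock, ARNTL pairs with CLOCK or its relative NPAS2 and switches on genes that carry the E-box sequence, among them the Per and Cry genes, whose proteins then block the pair. The same pair drives Nr1d1 and Nr1d2, receptors that repress Arntl, Npas2, Clock, Cry1 and Nfil3 through ROR elements, so Arntl peaks at about the opposite time of day from its targets. DBP and TEF activate genes with a D-box, which NFIL3 represses, and the gut epithelium is among the tissues in which this loop runs.

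Promoters of 5 of these genes are shown because they carry the letters of these elements close to the start of transcription. RefSeq promoter windows (GRCm38.p6, the 250 bases before each annotated start) were available for 9 of the 10 genes, 12 windows in all, and 6 of these held a match on either strand. The E-box CACGTG occurred in windows of Cry1, Per1 and Tef and in 6.02% of 32851 promoters of the same length. The related CACGTT occurred in those of Cry1 and Nr1d1 (3.85% of promoters), and the D-box TTATGTAA in that of Per3 (0.819%). No window of these genes held the D-box variant TTACGTAA (0.113%) or the ROR elements TAGGTCA (2.23%) and TGGGTCA (3.24%). Among the other clock factors, Ciart, an inhibitor of the activator pair, had 3 E-boxes, and Nfil3 had TAGGTCA. Bhlhe41 also had an E-box, Cry2 and Rorb had CACGTT, and Timeless had the D-box TTATGTAA. The windows of Dbp, Arntl, Npas2 and Nr1d2 held none of these letters, which concerns only these windows.

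Below are the windows of Cry1 (chr10:85185065-85185304, minus strand), Per1 (chr11:69098699-69098947, plus strand), Tef (chr15:81811164-81811413, plus strand), Nr1d1 (chr11:98775378-98775627, minus strand) and Per3 (chr4:151044666-151044915, minus strand), 5′ to 3′ on the strand of the gene, with matches in capitals. AACGTG is CACGTT read from the other strand. The Cry1 and Per1 windows stop 10 bases and 1 base before the start, where an annotated exon begins.
Cry1: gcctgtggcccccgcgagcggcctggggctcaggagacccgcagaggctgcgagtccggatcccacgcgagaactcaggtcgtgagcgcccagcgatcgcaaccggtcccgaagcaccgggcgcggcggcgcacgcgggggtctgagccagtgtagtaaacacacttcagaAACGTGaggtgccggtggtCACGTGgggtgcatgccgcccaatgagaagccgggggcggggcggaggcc
Per1: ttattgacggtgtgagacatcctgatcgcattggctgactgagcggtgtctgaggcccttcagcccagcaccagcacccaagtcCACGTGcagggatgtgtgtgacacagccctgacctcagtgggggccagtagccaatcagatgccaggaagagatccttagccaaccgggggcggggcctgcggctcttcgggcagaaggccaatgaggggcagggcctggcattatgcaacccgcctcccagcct
Tef: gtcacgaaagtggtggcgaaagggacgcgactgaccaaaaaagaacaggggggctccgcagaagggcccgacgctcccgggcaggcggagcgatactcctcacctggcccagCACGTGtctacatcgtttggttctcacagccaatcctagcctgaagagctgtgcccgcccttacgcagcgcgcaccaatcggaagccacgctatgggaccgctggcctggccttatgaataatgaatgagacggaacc
Nr1d1: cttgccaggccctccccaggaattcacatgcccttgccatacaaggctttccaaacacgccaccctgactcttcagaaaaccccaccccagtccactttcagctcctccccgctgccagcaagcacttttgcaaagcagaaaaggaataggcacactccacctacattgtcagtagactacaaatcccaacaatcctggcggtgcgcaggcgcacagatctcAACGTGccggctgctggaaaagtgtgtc
Per3: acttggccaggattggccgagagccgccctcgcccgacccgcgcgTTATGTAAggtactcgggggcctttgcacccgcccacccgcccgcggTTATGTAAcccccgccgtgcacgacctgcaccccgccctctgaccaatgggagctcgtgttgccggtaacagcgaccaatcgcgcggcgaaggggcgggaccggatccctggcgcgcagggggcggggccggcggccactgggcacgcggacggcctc

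In Cry1 the 2 matches lay 79 to 74 and 60 to 55 bases before the start, and in Per3 the 2 D-boxes lay 205 to 198 and 158 to 151 bases before it. A match is a run of letters and not a measured binding site.

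Several library-wide measures bear on what follows. From the smallest steps between RPKM values (reads per kilobase of gene, scaled to the library total), unsorted libraries were 74.7 to 102.6 (in units of 1e6 reads) deep, whereas in 5 of the 6 sorted libraries the steps did not give a clear depth. Tert was 0.459 and 0.251 RPKM in unsorted heterozygous libraries, 0.00778 and 0.0377 in null G4 and 0.0171 and 0.0311 in the pair labelled reactivated. Tert RNA in the libraries labelled reactivated was thus at the null G4 level, against their label, and every direction given for them is that of the label. In sorted cells it was 0.0424 to 0.169 RPKM in heterozygous libraries and 0 to 0.0787 in those labelled null G3. The library labelled null G3 replicate 2 thus lay within the heterozygous range. Null G3 replicate 1 stood apart, with 10 small intestine genes summing to 5850 RPKM against 103 to 153 in each of the other 5. Its 7 stem cell markers summed to 16.6 RPKM against 121 to 171. In it 5424 genes reached RPKM 1, against 7721 to 9144 in each of the other 5. Mitochondrial ribosomal RNA made up 71.9%, 64.4% and 46.8% of summed RPKM in null G3 replicates 1, 2 and 3. In sorted heterozygous libraries it made up 38.7% to 53.6%. The part of this RNA in the null G3 differences was not tested. In the unsorted set all 8 epithelial markers were at RPKM 1 or more in every library, and 12 immune markers summed to 1.78 to 8.27 RPKM. Sorted and unsorted libraries list different genes (25686 and 27658) and appear to have been normalized apart, so levels are set side by side across them without a test.

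Unsorted crypts fell into opposite clock states by library. In heterozygous crypts Arntl was low and Dbp, Tef, Nr1d1, Nr1d2 and Per3 were high, and in null G4 crypts the reverse held. The reactivated pair did not share a state. Replicate 1 resembled null G4 crypts, and replicate 2 lay near or beyond heterozygous ones for most genes. The ratio of Arntl to Dbp shows this in 1 number per library. It was 0.242 and 0.511 in heterozygous crypts, 36.6 and 54.0 in null G4, and 18.7 and 0.849 in reactivated replicates 1 and 2.

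**Figure D1:**
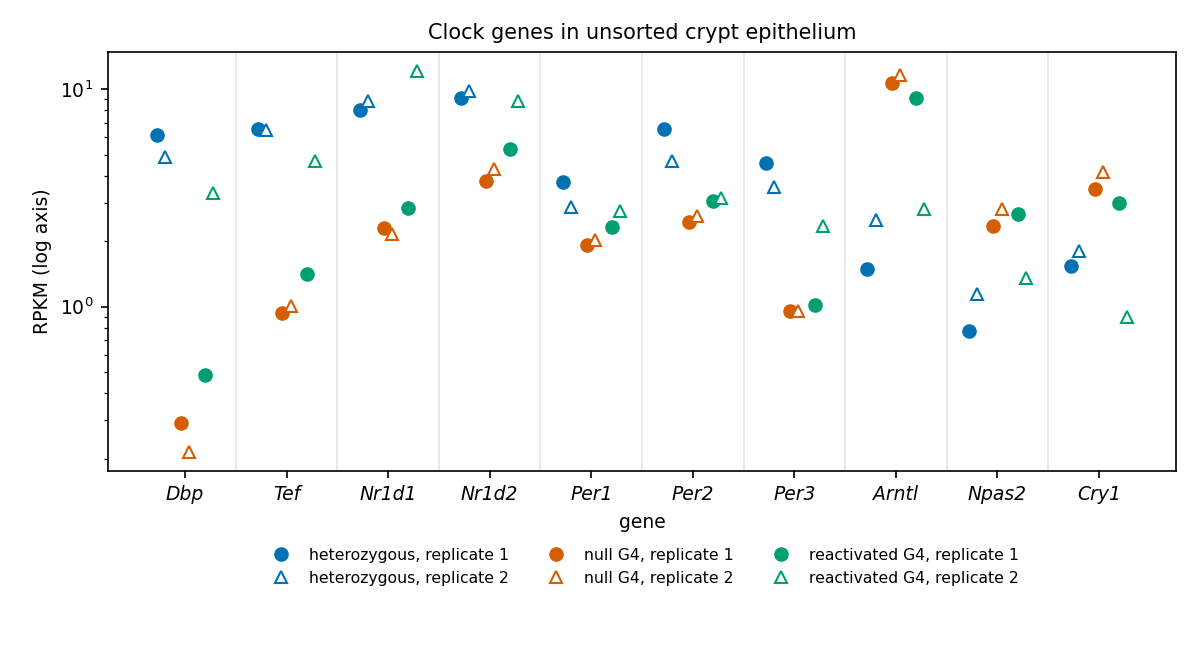
RPKM (log axis) of the 10 clock genes in the 6 unsorted libraries, with circles for replicate 1 and open triangles for replicate 2, colored by group. Dbp lies near 5 RPKM in heterozygous and under 0.3 in null G4 libraries, Arntl shows the opposite order, and reactivated replicates 1 and 2 part for most genes.

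Arntl (chromosome 7, 113207465 to 113314126; GRCm38 with GENCODE M21 annotation, as for all gene positions here) encodes the activator around which the loop turns. Its level was 1.49 and 2.50 RPKM in heterozygous crypts, 10.7 and 11.6 in null G4, and 9.11 and 2.83 in reactivated libraries. The heterozygous mean was 2.0 ± 0.71 (SD, n = 2) and the null G4 mean 11.2 ± 0.652 (SD, n = 2), a ratio of 5.6. Groups did not overlap, and reactivated replicate 2 lay just above the higher control. On the log2(RPKM + 1) scale, which understates differences at low levels, null G4 minus heterozygous was 2.04.

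Npas2 (chromosome 1, 39193731 to 39363236), which can stand in for Clock, was at 0.771 and 1.14 RPKM in heterozygous crypts, 2.36 and 2.80 in null G4 and 2.66 and 1.36 in reactivated libraries. Null G4 libraries were again above the controls without overlap, by 0.88 on the log2 scale, with reactivated replicate 1 at the null G4 level and replicate 2 between the groups. Clock itself (outside the chosen genes, so tested) was 6.57 and 6.81 RPKM in heterozygous crypts, 13.8 and 14.8 in null G4 and 12.4 and 10.2 in reactivated libraries. It rose by 0.99 in null G4 (SE 0.17, adjusted p = 0.0226 by limma).

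Among the repressors, Cry1 (chromosome 10, 85131700 to 85185064) was high where Arntl was high, unlike the Per genes. Its level was 1.55 and 1.81 RPKM in heterozygous crypts, 3.49 and 4.18 in null G4, and 3.00 and 0.9 in reactivated libraries. Null G4 lay above heterozygous crypts by 0.85 on the log2 scale without overlap. Reactivated replicate 2 was the lowest of the 6 libraries. Cry2, its close relative, went the other way, with 2.06 and 1.94 RPKM in heterozygous crypts, 0.994 and 0.937 in null G4 and 1.17 and 1.34 in reactivated libraries. Cry2 fell in null G4 by 0.61 (SE 0.14, adjusted p = 0.0482 by limma).

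Per3 (chromosome 4, 151003652 to 151044665) had the widest range of the Per genes as a ratio of highest to lowest level. It was at 4.60 and 3.57 RPKM in heterozygous crypts, 0.956 and 0.954 in null G4, and 1.02 and 2.34 in reactivated libraries. Reactivated replicate 1 lay at the null G4 level, and replicate 2 lay between the groups. Per2 (chromosome 1, 91415982 to 91459324) was at 6.53 and 4.67 RPKM in heterozygous crypts, 2.46 and 2.60 in null G4, and 3.05 and 3.17 in reactivated libraries. Per1 (chromosome 11, 69095217 to 69109960) spanned least by the same ratio, with 3.76 and 2.87, 1.91 and 2.02, and 2.32 and 2.75 RPKM in the same order. For Per1 and Per2 both reactivated libraries lay between the other groups and close together. Null G4 minus heterozygous was -1.37 for Per3, -0.89 for Per2 and -0.53 for Per1 on the log2 scale.

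Ciart (outside the chosen genes) was at 2.04 and 1.82 RPKM in heterozygous crypts, 0.323 and 0.312 in null G4 and 0.341 and 0.937 in reactivated libraries. It fell in null G4 by 1.15 on the log2 scale (SE 0.20, adjusted p = 0.0208 by limma).

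The receptor Nr1d1 (chromosome 11, 98767932 to 98775333), also known as REV-ERB alpha, was at 8.02 and 8.80 RPKM in heterozygous crypts, 2.31 and 2.15 in null G4, and 2.85 and 12.2 in reactivated libraries. Reactivated replicate 2 was above both controls, and replicate 1 was close to null G4. Its relative Nr1d2 (chromosome 14, 18204054 to 18239127) was at 9.13 and 9.85, 3.79 and 4.31, and 5.28 and 8.79 RPKM in the same order. Here replicate 2 lay just short of the controls. Null G4 minus heterozygous was -1.54 for Nr1d1 and -1.06 for Nr1d2. Rora and Rorb, activators that compete with both receptors for the ROR element, did not exceed 0.0855 RPKM.

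Dbp (chromosome 7, 45705088 to 45710203) showed the widest range of all 10 as a ratio of highest to lowest level. It was at 6.18 and 4.89 RPKM in heterozygous crypts, 0.293 and 0.215 in null G4, and 0.486 and 3.33 in reactivated libraries. Its means were 5.53 ± 0.911 and 0.254 ± 0.055 RPKM (SD, n = 2 each), so null G4 crypts held 0.0459 times the control level. The lowest values still stood for about 65 and 66 reads. Tef (chromosome 15, 81802421 to 81826863), a factor of the same family, was at 6.55 and 6.48, 0.935 and 1.01, and 1.41 and 4.65 RPKM in the same order. Both genes were lower in null G4 without overlap (log2 differences -2.38 and -1.93), with reactivated replicate 2 between the groups. Hlf, the remaining factor of that family, did not exceed 0.0321 RPKM in unsorted libraries. Nfil3, the repressor at the D-box, was at 0.734 and 1.24 RPKM in heterozygous crypts, 3.78 and 3.92 in null G4, and 3.37 and 1.02 in reactivated libraries. Its difference of 1.30 (SE 0.32, adjusted p = 0.0506 by limma) did not pass.

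In null G4 against heterozygous crypts the groups of all 10 genes did not overlap, 7 lower and 3 higher. Of all 11464 genes 81.2% did not overlap, with 6.5% lower and 74.7% higher, and as the genes were chosen on this contrast nothing is read from their count. The median log2 difference was -0.97 for the 10 genes and 0.36 for all genes. Each of the 10 kept its direction in 13 alternative treatments of the data. As the groups did not overlap, only quantile normalization and scaling to a common median could have changed a direction, so the others are no check of it. These are bulk samples, so fewer cells of a type and less RNA per cell cannot be told apart.

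By limma 636 of 11464 genes (5.55%) passed an adjusted p of 0.05 in null G4 against heterozygous crypts, 570 higher and 66 lower. After quantile normalization the split was 135 higher and 102 lower, and after median scaling it was 147 and 175. Of 12 clock factors outside the 10 genes 7 had enough signal to test, and 1 rose (Clock) and 2 fell (Cry2 and Ciart), against 4.97% and 0.576% of all genes. Clock, Cry2 and Ciart each lost the call on leaving out any 1 heterozygous or null G4 library (adjusted p 0.0628 to 0.378), and with no filter on low values (0.109 to 0.161). Ciart also lost it under quantile normalization and median scaling (adjusted p = 0.0583 and 0.0507), and Cry2 without limma's mean trend (adjusted p = 0.0507). Bhlhe40, a repressor that binds E-boxes, was at 13.7 to 18.8 RPKM in all unsorted libraries (-0.08, SE 0.20, adjusted p = 0.75 by limma). In the same libraries Bhlhe41 did not exceed 0.0199 RPKM, and Arntl2 lay between 0.295 and 1.00 RPKM.

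Among genes one step away from the loop only output genes were called. Of 18 tested genes whose products modify or degrade clock proteins, such as the casein kinases, 0 passed by limma, with 9 at an unadjusted p under 0.05 (median log2 difference 0.34, all genes 0.36). Among 20 tested output genes 3 rose and 0 fell, against 4.97% and 0.576% of all genes. Those that rose were the transferrin receptor Tfrc (1.16, adjusted p = 0.0242), the cyclin Ccnd1 (1.30, adjusted p = 0.0395) and the transcription factor subunit Leo1 (0.97, adjusted p = 0.047 by limma). All 3 lost the call under quantile normalization, under median scaling, with no filter, and on dropping any single heterozygous or null G4 library. The 11 tested genes that respond to glucocorticoid or temperature had 0 calls by limma and 4 at an unadjusted p under 0.05 (median 0.34). The 14 immediate early genes had 0 calls and 2 at that p (median 0.10). Of all genes 44.2% were at an unadjusted p under 0.05 in this comparison.

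The reactivated pair was then compared library with library, which the design labels as replicates. Replicate 2 had 6.85 times the Dbp level of replicate 1, 4.28 times the Nr1d1 level and 3.30 times the Tef level. Replicate 1 had 3.22 times the Arntl level of replicate 2 and 3.33 times the Cry1 level. These 5 genes differed over 2-fold on the log2(RPKM + 1) scale, where 2.33% of all genes did (0.942% higher and 1.39% lower in replicate 2). As the genes were chosen on these libraries, nothing is read from that count. None of the 10 reached 2-fold between the heterozygous replicates (2.19% of all genes) or between the null G4 replicates (0.584%). Per1 and Per2 hardly differed between the reactivated libraries (0.18 and 0.04), and Nr1d2 (0.64), Per3 (0.73) and Npas2 (-0.63) lay in between. With 1 library of each kind these differences have no replicate check.

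Setting the heterozygous mean at 0 and the null G4 mean at 1 on the log2(RPKM + 1) scale places each reactivated library on 1 axis. In replicate 1 the 10 genes lay between 0.68 (Cry1) and 1.04 (Npas2). In replicate 2 they were at -0.58 (Cry1), -0.32 (Nr1d1), 0.09 (Nr1d2), 0.18 (Arntl), 0.21 (Tef), 0.25 (Dbp), 0.32 (Npas2), 0.36 (Per1), 0.44 (Per3) and 0.73 (Per2). Replicate 2 thus ranged from beyond the heterozygous mean to near the null G4 level, depending on the gene. Of the clock factors outside the 10, Nfil3 was at 0.88 and 0.02 in replicates 1 and 2, Clock at 0.81 and 0.54, Cry2 at 0.76 and 0.59, and Ciart at 0.98 and 0.52. For scale, 565 other genes that passed as higher in null G4 had medians of 0.84 and 0.60, and 58 that passed as lower had 0.77 and 0.80. Lower and upper quartiles in replicate 2 were 0.35 and 0.83 for the higher set and 0.58 and 1.01 for the lower one. In replicate 1 they were 0.73 and 0.93, and 0.61 and 0.90. The 10 genes were chosen on these libraries, so nothing is read from their places beside these sets.

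**Figure D2:**
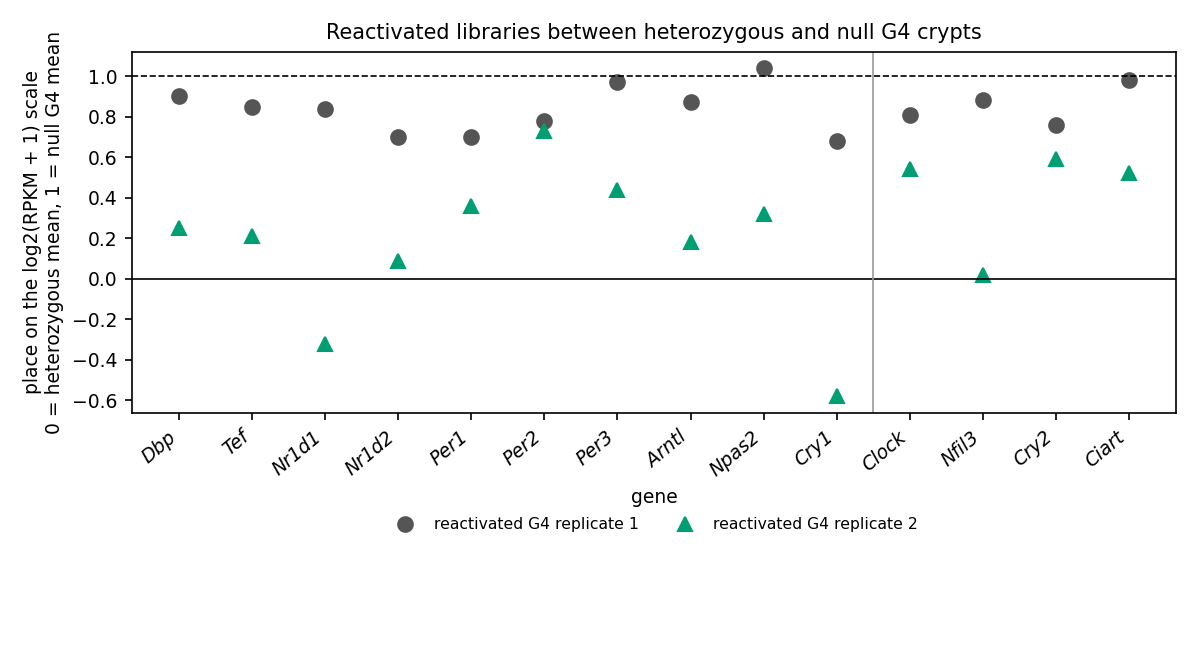
Place of reactivated replicate 1 (circles) and replicate 2 (triangles) between the heterozygous mean (0) and the null G4 mean (1) on the log2(RPKM + 1) scale for the 10 clock genes and 4 further clock factors. Replicate 1 lies between 0.68 and 1.04 for the 10 genes, and replicate 2 reaches -0.58 for Cry1 and -0.32 for Nr1d1.

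As a group, crypts labelled reactivated differed from null G4 crypts by 1.14 for Nr1d1, 1.02 for Dbp, 0.91 for Tef, -0.97 for Arntl and -0.81 for Cry1 on the log2 scale. These values rest on replicate 2. Without it they were 0.25, 0.25, 0.29, -0.27 and -0.27, and without replicate 1 they were 2.03, 1.79, 1.52, -1.67 and -1.34. The remaining 5 genes differed by 0.22 (Per2) to 0.64 (Nr1d2), with Npas2 at -0.28. Groups did not overlap for 9 of the 10 genes, 7 higher and 2 lower, against 30.0% of all genes (4.58% higher and 25.5% lower). Nothing is read from this count either, since the genes were chosen on these libraries. Without replicate 2 the value for Per3 was 0.0468 and that for Npas2 took the other sign (0.0323). By limma 3 of 11464 genes passed (0.0262%, with 0.0174% higher and 0.00872% lower), and 0 of the 7 tested clock factors. At an unadjusted p under 0.05 there were 0 of these 7 and 2.7% of all genes.

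Against heterozygous crypts, which also serve the first comparison, the pair labelled reactivated differed by -1.36 for Dbp, -1.03 for Tef, -0.96 for Per3, -0.67 for Per2 and 1.07 for Arntl. The difference of Nr1d1 was -0.40 over both libraries, 0.49 with replicate 2 alone and -1.29 with replicate 1 alone. Cry1 likewise was 0.0441 over both, -0.49 with replicate 2 alone and 0.58 with replicate 1 alone. Groups did not overlap for 8 of the 10 genes, 6 lower and 2 higher (51.1% of all genes, 4.42% lower and 46.7% higher). This count too comes from the libraries on which the genes were chosen, so nothing is read from it. Limma called 146 genes (1.27%, with 1.13% higher and 0.148% lower) and 0 of the 7 tested clock factors, with 3 of these and 14.1% of all genes at an unadjusted p under 0.05. With replicate 1 alone the differences from heterozygous crypts were 0.81 for Clock, 1.15 for Nfil3 and -1.13 for Ciart. These rest on 1 reactivated library, with no replicate check.

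The ratio of Arntl to Dbp parted the unsorted libraries in the same way as the sex-linked genes did, while Per1 and Per2 differed little between the reactivated libraries. Xist, the RNA that silences an X chromosome in female cells, was at 28.6 and 22.3 RPKM in null G4 libraries and 24 in reactivated replicate 1. It did not exceed 0.0336 RPKM in the heterozygous libraries and reactivated replicate 2. The Y-linked helicase Ddx3y was at 4.72, 4.78 and 4.75 RPKM in those latter 3 libraries and at or under 0.00574 in the former 3. The Y-linked demethylase Kdm5d was at 5.47, 5.87 and 6.04 RPKM against at most 0.0073. In unsorted crypts the clock state, sex-linked expression and, between null G4 and heterozygous libraries, the Tert genotype cannot be told apart. No null G4 library had Y-linked expression and no heterozygous one had Xist, so a comparison of these genotypes within 1 sex was not available.

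**Figure D3:**
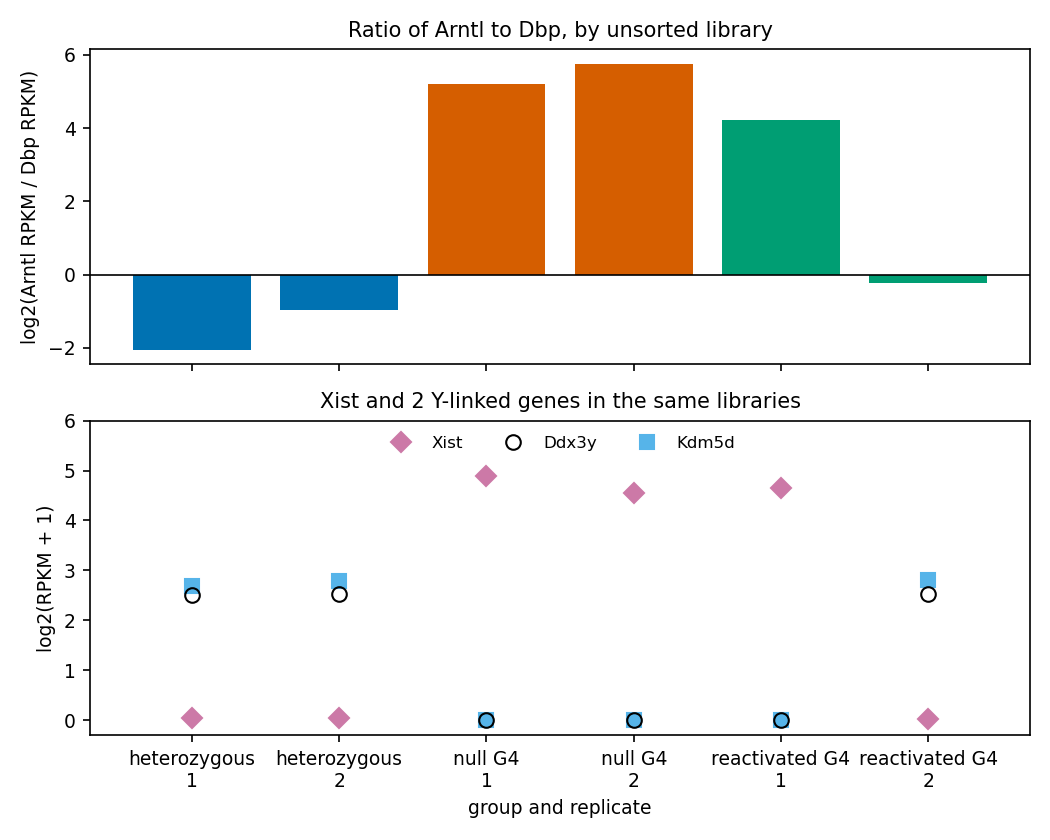
Upper panel, log2 of the ratio of Arntl to Dbp RPKM in each unsorted library, and lower panel, log2(RPKM + 1) of Xist and the Y-linked Ddx3y and Kdm5d in the same libraries. The 3 libraries with Xist have log2 ratios of 4.23 to 5.76, and the 3 with Y-linked expression have -2.05 to -0.24.

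Each reactivated library can be set beside 1 other group inside 1 sex-linked class, with no replicate on the reactivated side. Reactivated replicate 1 and null G4, all with Xist, differed by 0.0323 to 0.32 in size for the 10 genes on the log2 scale. Reactivated replicate 2 and heterozygous crypts, all with Y-linked expression, differed by 0.0989 (Nr1d2, lower) to 0.65 (Per2, lower) in size. Other measures parted the same libraries. The count of genes reaching RPKM 1 was 11030 to 11162 where Arntl was high and 10633 to 10734 where it was low. Mitochondrial ribosomal RNA made up 10.8% to 12.0% and 16.7% to 27.3% of summed RPKM, and 7 stem cell markers summed to 101 to 112 and 79.7 to 81.4 RPKM. Most of the stem cell sum was the ion carrier Slc12a2 (means of 56.4 RPKM in heterozygous and 75.3 in null G4 crypts), whereas the stem cell receptor Lgr5 had the opposite order (0.87 and 0.564). The 9 stromal and endothelial markers summed to 2.02 to 2.21 RPKM and 1.01 to 1.08 RPKM, none of them reaching RPKM 1. The endothelial Pecam1 and Vwf had the opposite order (means of 0.197 and 0.209 RPKM in heterozygous, 0.0769 and 0.167 in null G4 crypts), and Cdh5 was at 0 in 3 of the 6 libraries. The part of these measures in the clock gene values was not tested.

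A search over 11454 genes for the unsorted pattern nearest to that of Dbp returned mainly Y-linked genes. Likeness was the mean absolute difference of log2(RPKM + 1) after centering each gene over the 6 libraries, a description over libraries that differ in depth and sex-linked expression. Nearest, clock genes aside, were Eif2s3y (0.206), Uty (0.233), Ddx3y (0.256), the gasdermin Gsdmc2 (0.276) and Kdm5d (0.356), with Tef at 0.20. Eif2s3y encodes a subunit of a translation initiation factor, Uty is a demethylase relative, and Gsdmc2 has close copies among which reads could be split. Gsdmc2 was at 111.3 and 123.9 RPKM in heterozygous crypts, 31.3 and 34.5 in null G4 and 31.2 and 66.8 in reactivated libraries.

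Nearest to Arntl were Art2a-ps (0.22), the cell cycle factor E2f2 (0.223), Tmem252 (0.228), the X-linked Eif2s3x (0.237) and the proteasome subunit Psma3 (0.238). Among the clock genes Cry1 (0.493) and Npas2 (0.517) followed at a distance. E2f2 was at 1.84 and 1.86 RPKM in heterozygous crypts, 7.44 and 7.57 in null G4, and 6.89 and 2.75 in reactivated libraries. Its reactivated replicate 2 lay between the controls and null G4. Eif2s3x was at 3.62 and 4.61, 12.1 and 13.2, and 12.1 and 4.64 RPKM in the same order, and reads of its Y-linked copy may be shared with it.

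In sorted crypt base columnar cells most of the clock genes were low. Dbp did not exceed 0.144 RPKM and Tef 0.464 RPKM in any sorted library. Arntl was at 3.07, 1.78 and 2.23 RPKM in the heterozygous libraries, against 0.570, 1.41 and 1.56 in null G3. Null G3 libraries were all below the heterozygous ones, the direction opposite to that in unsorted crypts. The log2 difference was -0.64 (SE 0.31, adjusted p = 0.481 by limma), beside a median of -0.46 over all 8734 tested genes, and scaling to a common median left -0.13. It was -0.42 without null G3 replicate 1.

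Nr1d1 had the highest group means of the 10 genes in sorted cells, with 2.65, 5.18 and 2.92 RPKM in the heterozygous libraries, against 16.2, 5.16 and 6.91 in null G3. The highest value belonged to null G3 replicate 1, and the groups overlapped. Its difference of 1.08 (SE 0.46, adjusted p = 0.481 by limma) was 0.65 without that library. Nr1d2 was at 1.08, 1.71 and 1.67 and at 1.23, 2.25 and 2.58 RPKM (0.26, SE 0.30, adjusted p = 0.535). Npas2 was at 2.12, 1.53 and 1.82 and at 2.20, 1.22 and 1.5 RPKM (-0.11, SE 0.28, adjusted p = 0.77), and took the other sign after scaling to a common median (0.40) or quantile normalization (0.35). These 4 genes were the only ones of the 10 that passed the filter on low values, 0 of them were called by limma, 1 (Nr1d1) was at an unadjusted p under 0.05, and the groups of 1 (Arntl) did not overlap, as for 12.7% of all genes (0.114% with null G3 higher and 12.6% lower).

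The other 6 genes were below the filter in sorted cells and were not tested. Per1 lay between 0.180 and 1.35 RPKM, Per2 between 0.151 and 0.732, Per3 between 0.0771 and 0.322, and Cry1 between 0.221 and 1.25, all with overlapping groups. Of all 8734 genes 0 (0.0%) passed by limma, and 143 (1.64%) were at an unadjusted p under 0.05. Clock was at 8.55, 9.46 and 8.0 RPKM in the heterozygous libraries, against 3.55, 6.43 and 7.28 in null G3 (-0.56, SE 0.37, adjusted p = 0.481 by limma). These groups did not overlap either, and the difference was -0.30 without null G3 replicate 1 and -0.058 after scaling to a common median.

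**Figure D4:**
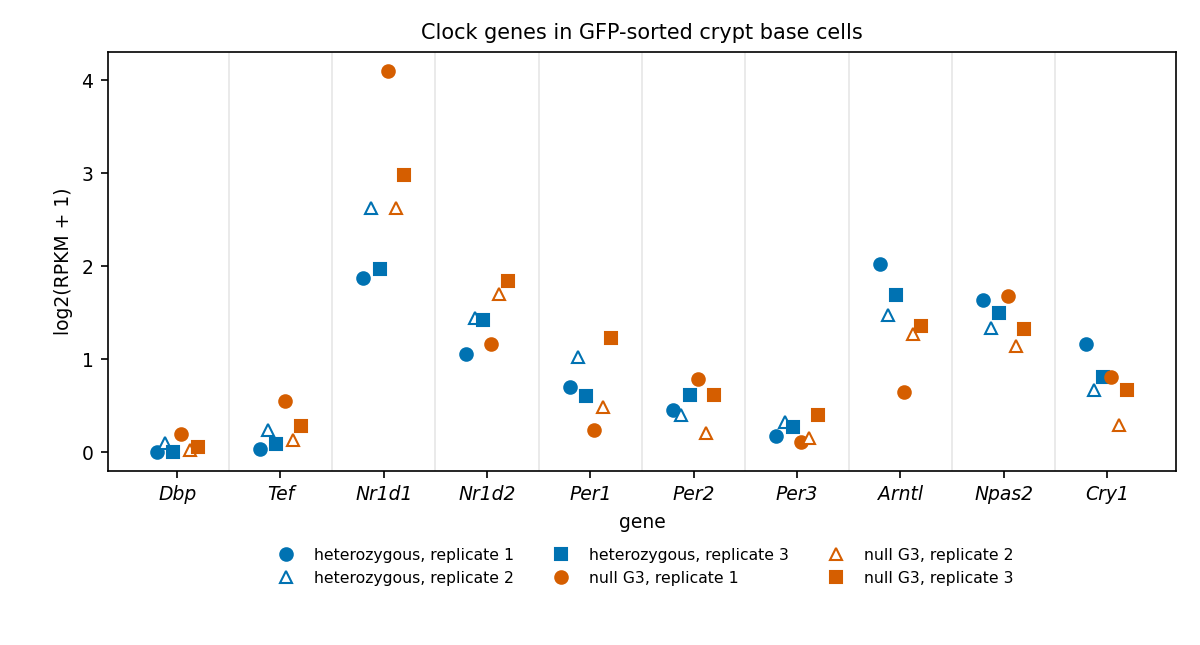
Level of the 10 clock genes as log2(RPKM + 1) in the 6 GFP-sorted libraries, 3 heterozygous (blue) and 3 null G3 (orange), with 1 symbol per replicate. Dbp and Tef lie near 0, Arntl is lower in all null G3 libraries, and Nr1d1 is highest in null G3 replicate 1.

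Sorted cells also hold a library whose sex-linked genes differ from the rest, null G3 replicate 2, with Ddx3y at 1.75 RPKM against at most 0.00596 in the other 5. It lay within the range of those 5 for 7 of the 10 clock genes, Dbp, Tef, Nr1d1, Nr1d2, Per1, Per3 and Arntl. For Per2, Npas2 and Cry1 it was the lowest library.

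Set side by side, sorted heterozygous cells had far less of most clock genes than unsorted heterozygous crypts. Sorted minus unsorted was -2.79 for Tef, -2.66 for Dbp, -2.22 for Per2, -2.09 for Nr1d2, -2.08 for Per3, -1.33 for Per1, -1.08 for Nr1d1 and -0.54 for Cry1 on the log2(RPKM + 1) scale. Arntl (0.17) and Npas2 (0.53) were at or above the unsorted level. Across 11751 genes the same difference moved with the GC content of the transcript, from a median of -0.05 in the lowest of 10 equal GC classes to -1.05 in the highest. Within their own GC classes Tef, Nr1d2, Per2 and Per3 lay below the 5th percentile (-1.93, -1.35, -1.95 and -1.93), whereas Dbp, at 61.6% GC, did not (-2.70). The genes were chosen on unsorted values, and Dbp, Tef, Per2 and Per3 reached RPKM 1 only in unsorted libraries. Nothing is therefore read from their places among genes of like GC content. The heterozygous libraries also differed in sex-linked expression, with Xist at 25.8 to 37.2 RPKM in sorted and at most 0.0336 in unsorted ones. Mitochondrial ribosomal RNA made up 38.7% to 53.6% of summed RPKM in sorted heterozygous libraries and 19.2% and 27.3% in unsorted ones. The part of sex-linked class, of GC content, of this RNA, of separate normalization and of the sort in the sorted minus unsorted differences was not tested.

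**Figure D5:**
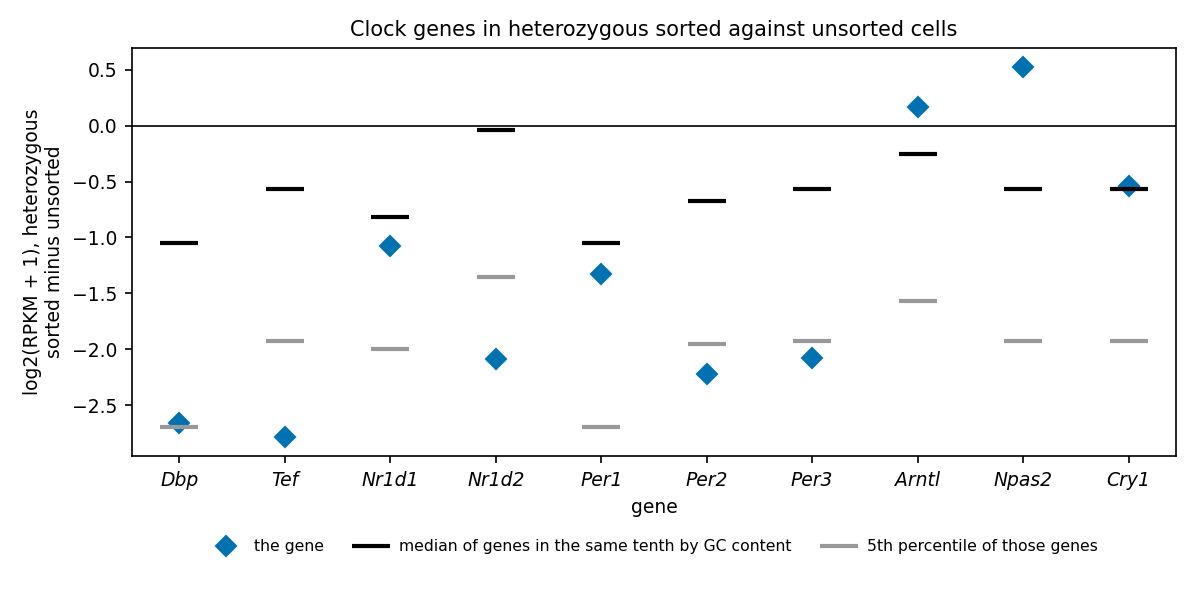
Difference in log2(RPKM + 1) between sorted and unsorted heterozygous libraries for the 10 clock genes (diamonds), with the median (black) and 5th percentile (gray) of genes in the same of 10 GC classes. Tef, Nr1d2, Per2 and Per3 lie below the gray line, and Arntl and Npas2 lie above the black one.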

How the data were processed

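RNA from 12 libraries, 6 sorted and 6 unsorted, was extracted with Qiagen RNeasy kits and made into TruSeq RNA libraries, per the labels' protocols. STAR 2.3.0e and mm10 appear, with no role, in the submitters' processing notes. What counted the reads, on which annotation and strand, is not given in the sources used here. RPKM values deposited by the authors were used as given, and depth was read from their smallest steps (in unsorted libraries, 81.6% to 83.6% of values up to 5 reads lay within 0.05 of a whole read, where chance gives 10%). Gene identifiers matched GENCODE M21 for 97.9% of genes.

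Genes reaching RPKM 1 in as many libraries as the smallest group holds were tested on log2(RPKM + 1) with limma 3.58.1 in R 4.3.3 (mean trend, two-sided, Benjamini-Hochberg, threshold 0.05). The 6 sorted libraries were fitted alone and the 6 unsorted ones together. Python 3.11.15, pandas 2.3.3, numpy 2.4.6 and matplotlib 3.10.9 did the rest. The fit was tested on simulated data.

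The 10 genes, the comparisons and the 14 gene lists were chosen with earlier results of these data known. All 10 genes were named, with Tert first, 8 fixed clock factors (1 more is not reported here), listed genes that passed, and the 5 genes nearest in pattern to Dbp and to Arntl, predicted genes left out (3 and 1 passed over). Xist, and Ddx3y and Kdm5d in the account of sex-linked genes, Cdh5, Pecam1, Vwf, Slc12a2, Lgr5, Rora and Rorb were named after their values were seen. Timeless was named for its promoter match alone. Alternatives were another pseudocount (0.1), no filter, quantile normalization, median scaling, no mean trend, a replicate block, fitting only the groups compared, and leaving out each library.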

Additional observations from a re-analysis of the deposited data

Results flagged for a closer look

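Arntl, Clock and Leo1 had differences of opposite sign in the 2 sets, each without overlap between groups. In sorted cells the libraries labelled null G3 were below heterozygous ones, with log2 differences of -0.64 for Arntl, -0.56 for Clock and -0.88 for Leo1. None of them passed there (adjusted p = 0.481 for each by limma), and scaling to a common median left -0.13 for Arntl and -0.058 for Clock. Of all genes tested 12.6% were lower without overlap in sorted cells and 74.7% higher without overlap in unsorted crypts. In unsorted crypts null G4 was above heterozygous, with 2.04, 0.99 and 0.97. The difference between the sets was not tested, since they appear to have been normalized apart and hold different generations. The sets also differ in sex-linked expression. In unsorted crypts null G4 libraries had Xist and heterozygous ones had Y-linked expression. All sorted heterozygous libraries had Xist (25.8 to 37.2 RPKM), and among null G3 libraries only replicate 2 had Y-linked expression. Over all tested genes the median was -0.46 in sorted cells and 0.36 in unsorted crypts.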

How the results depend on the processing

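In null G4 against heterozygous crypts 636 genes passed, against 21 with no filter, 237 after quantile normalization, 322 after median scaling, 5804 when only the 2 groups were fitted, and 112 to 5492 on leaving out 1 library (lowest without null G4 replicate 2, highest without reactivated replicate 2). For reactivated against null G4 crypts 3 genes passed, against 0 with no filter or quantile normalization, 8 when only the 2 groups were fitted, and 4 to 62 without 1 library (62 without reactivated replicate 1). Reactivated against heterozygous crypts gave 146, against 22 with no filter, 88 after quantile normalization, 94 after median scaling, and 120 to 1919 without 1 library, the last without reactivated replicate 2. In sorted cells 0 genes passed in every alternative.

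The labels do not say that replicate numbers pair libraries, and same-numbered libraries of different groups deviated with correlations of -0.19 to 0.22. With a replicate block 1317, 9 and 264 genes passed in the 3 unsorted comparisons and 0 in sorted cells, Nfil3 passed in null G4 against heterozygous crypts (adjusted p = 0.00365), and Ciart did in reactivated against heterozygous crypts (adjusted p = 0.0233).

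Scaling moved the median log2 difference of all genes from -0.46 to 0.04 in sorted cells and from 0.36 to 0.00 in null G4 against heterozygous crypts (median scaling). Differences near 0 changed sign. In sorted cells these were Npas2 (0.35 quantile, 0.40 median scaling, 0.0115 without null G3 replicate 2, in a range of -0.25 to 0.0115 without 1 library) and Nfil3 (0.0781 and 0.0868). In reactivated against null G4 crypts, without reactivated replicate 2, these were Bhlhe40 (-0.0107) and Ccnd1 (0.0534, in a range of -0.79 to 0.0534). In reactivated against heterozygous crypts it was Bhlhe40 (-0.24 and -0.12, -0.0931 without reactivated replicate 2, up to 0.28). The cause was not tested. With 2 libraries a group, leaving 1 out assumes that the lone library varies like the other groups.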

Other observations

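Among genes that respond to glucocorticoid or temperature, the chaperone Hsp90aa1, chosen after its values were seen, split the unsorted libraries in the same way as the clock genes. It was at 20.6 and 22.8 RPKM in heterozygous crypts, 51.5 and 59.6 in null G4, and 55.7 and 19.7 in reactivated libraries (null G4 minus heterozygous 1.31 on the log2 scale, SE 0.41, adjusted p = 0.062 by limma, not passed). The cold-induced Cirbp did not split, with 3.26 to 4.55 RPKM in all 6 libraries. Rbm3, of the same list and also chosen after its values were seen, was higher in null G4 than in heterozygous crypts without overlap. Its level was 11.7 to 13.5 RPKM in heterozygous crypts, 17.2 to 19.9 in null G4 and 14.6 to 14.9 in reactivated libraries. Fkbp5, a glucocorticoid target, was at 8.65 and 13.9 RPKM in heterozygous crypts, 12.6 and 14.5 in null G4 and 14.4 and 9.41 in reactivated libraries, with overlapping groups.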
